A study of Homo sapiens with 46 samples.

Results

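The genes described here are 10 regulators of definitive endoderm, the embryonic layer that gives rise to gut, liver and pancreas. They are SOX17, GATA4, GATA6, FOXA2, EOMES, MIXL1, HHEX, GSC, CER1 and CXCR4, and they were chosen by name, not by their values. Each was looked up by its gene name in 4 tables of read counts, one per cell type, which together held 21183 Ensembl genes. The endoderm table, with 13656 genes, listed 10 of the 10. The table of pluripotent cells listed only MIXL1, the mesoderm table listed only GATA6, and the ectoderm table listed 0 of them. A gene missing from a table was not part of the transcript set assembled for that cell type, so its level there is unknown rather than 0.

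The RNA came from H1, an established human embryonic stem cell line. Undifferentiated cells (hPSCs) grew on Matrigel in mTeSR1. Endoderm was induced in RPMI with FBS, WNT3A and Activin A. Mesoderm was induced in DMEM/F12 with FBS, VEGF, BMP4 and bFGF, with Activin A during the first day only. Ectoderm was induced in DMEM/F12 with KOSR and the inhibitors A83-01, PNU-74654 and Dorsomorphin, and no Activin A was named for it. The labelled Activin A dose was the same for endoderm and mesoderm. A collection day was labelled for ectoderm only, so whether the cell types were collected after equal times is unknown. Every cell type was split into cytoplasm, whole nucleus, nucleoplasm (the soluble part of the lysed nucleus) and chromatin (the nuclear pellet), in buffers that held α-amanitin, an inhibitor of RNA polymerase II. There were 46 libraries in 16 groups, with 3 per group except mesoderm nucleoplasm, which had 1. All groups derive from 1 cell line, and nothing says that the replicates came from separate differentiations.

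Activin A acts through the receptors that Nodal uses, and in embryos high Nodal signalling together with WNT first turns on the primitive streak factors EOMES, MIXL1 and GSC. EOMES is known to act upstream of SOX17, a factor that marks and specifies definitive endoderm, and the streak program is normally switched off as GATA4, GATA6 and FOXA2 take over. GATA and forkhead factors can bind closed chromatin and open it. HHEX is a homeobox repressor of the anterior endoderm, CER1 is a secreted antagonist of Nodal, BMP and WNT, and CXCR4 is the cell-surface receptor for the chemokine CXCL12, widely used to sort endoderm cells.

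Endoderm libraries held 7899619 to 18360084 counts in all, and libraries of any cell type 4990408 to 21298678. Other cell identities were read from fixed marker lists in the endoderm libraries. SOX2, a pluripotency factor, was not listed, while the other 7 of 8 pluripotency markers were. Their summed level was 4774 to 5394 CPM (read counts scaled to the library total) in cytoplasm, 1452 to 1785 in nucleus, 1339 to 1405 in nucleoplasm, with 1106 to 1142 in chromatin. The hPSC sums, which also hold SOX2, were 6627 to 7224, 3711 to 4993, 5506 to 5724 and 5136 to 5805 CPM in the same order. Of 8 neuroectoderm markers 3 were listed (PAX6, LIX1 and NES), at 214 to 877 CPM in sum. SOX1 was listed neither here nor for ectoderm. In hPSCs, where NES was the only one of these markers listed, the level was 278 to 756 CPM. The ectoderm libraries, with 6 listed, held 1142 to 1498 CPM in sum. Of 8 markers of extraembryonic or later endoderm 3 were listed (APOA1, APOA2 and HNF4A), at 1088 to 7873 CPM in sum, while AFP, TTR, ALB, PDX1 and SOX7 were not. Of 10 mesoderm markers 8 were listed, at 402 to 703 CPM in sum. The sum was 27.5 to 468 CPM in hPSCs, with 5 listed, and 301 to 627 CPM in the mesoderm libraries, with 8 listed. The share that such cells have in the members' levels was not tested, and in bulk RNA fewer cells of a type and less RNA per cell cannot be told apart. As a check of the fractions, 4 of 8 cytoplasmic control genes were higher in cytoplasm than in nucleus and the 3 mitochondrial ones among them were lower. Among 4 listed nuclear controls, MEG3 and KCNQ1OT1 were lower in cytoplasm, SNHG14 was higher, and MALAT1 was not called either way.

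The 4 members that the main test below called between cytoplasm and nucleus of endoderm are introduced first, by the DNA just upstream of their start sites. The calls of CER1 and GATA6 did not hold in every alternative analysis. The stretches end before the first annotated transcript start, read 5′ to 3′ on the gene's strand, and come from RefSeq's promoter table (GRCh38.p14). Capitals mark the letters CAGAC or their reverse complement GTCTG, a short motif of SMAD proteins, which carry the Activin and Nodal signal to DNA. The MIXL1 stretch was chosen by a rule set for the strongest change between cell types, and the other 3 were added after their values had been seen. MIXL1 lies on the plus strand, at chr1:226223414-226223617.
MIXL1: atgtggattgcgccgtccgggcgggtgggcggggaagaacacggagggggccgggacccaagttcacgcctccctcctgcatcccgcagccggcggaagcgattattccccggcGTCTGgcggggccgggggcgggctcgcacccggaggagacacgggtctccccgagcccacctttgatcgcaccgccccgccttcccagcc
CXCR4 lies on the minus strand, at chr2:136118166-136118399.
CXCR4: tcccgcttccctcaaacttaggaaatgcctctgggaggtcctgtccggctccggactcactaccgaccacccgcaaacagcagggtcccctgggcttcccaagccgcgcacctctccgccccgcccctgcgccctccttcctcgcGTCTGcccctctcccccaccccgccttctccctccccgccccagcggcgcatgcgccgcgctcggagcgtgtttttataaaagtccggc
CER1 lies on the minus strand, at chr9:14722734-14722983.
CER1: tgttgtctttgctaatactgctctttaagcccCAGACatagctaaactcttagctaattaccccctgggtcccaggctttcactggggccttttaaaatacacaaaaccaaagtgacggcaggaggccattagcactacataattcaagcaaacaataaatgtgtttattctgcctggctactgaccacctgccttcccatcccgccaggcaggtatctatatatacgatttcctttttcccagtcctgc
GATA6 lies on the plus strand, at chr18:22169339-22169442, and this shorter stretch holds no match.
GATA6: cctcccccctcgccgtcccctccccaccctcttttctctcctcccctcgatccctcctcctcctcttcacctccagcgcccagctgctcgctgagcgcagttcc
In the full windows of 250 bases before each RefSeq start, CAGAC or GTCTG was present for MIXL1, CER1, GSC and GATA6 and in 1 of 3 windows for CXCR4, and was not found for EOMES or HHEX. The same letters occur in 38.0% of 35116 human promoter windows of this length. A GATA motif, spelled AGATAA, is in 9.17% of all windows. The forkhead motif TGTTTAC is in 2.98%. The T-box motif TCACAC is in 9.90%. Each was searched on both strands, and none of these 3 was found in the 9 windows of the 7 genes. FOXA2 had no window in the table, and SOX17 and GATA4 were not searched. None of the motifs contains another, and a match describes the sequence only.

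SOX17 and GATA4 had the highest mean levels per unit of length in every endoderm fraction, though in nucleoplasm the CER1 libraries overlapped those of both. In cytoplasm SOX17 had a mean of 79.8 ± 15.4 TPM (a length-normalised transcript abundance, SD, n = 3) and GATA4 75.7 ± 12.2 TPM, and their libraries overlapped. FOXA2 followed at 38.9 ± 10.8 TPM and EOMES at 21.1 ± 5.50 TPM, each apart from its neighbours in the order. GATA6 (12.6 ± 2.65 TPM) and MIXL1 (10.97 ± 1.10 TPM) overlapped, CER1 stood at 7.87 ± 1.66 TPM, HHEX (3.29 ± 1.05 TPM) and CXCR4 (3.01 ± 0.67 TPM) overlapped, and GSC was lowest at 1.24 ± 0.21 TPM. The order changed between fractions: in nucleoplasm CER1 (37.1 ± 3.90 TPM) and CXCR4 (30.05 ± 4.33 TPM) stood next to GATA4 (39.3 ± 3.38 TPM) and SOX17 (37.9 ± 4.91 TPM), and each of these overlapped its neighbour in the order. GSC remained the lowest in all 4 fractions, at 0.55 ± 0.16 TPM in nucleoplasm. This order depends on the transcript lengths used for TPM, estimated below at 9595 bases for GATA6, 8189 for the main GSC transcript and 785 for FOXA2. By CPM, which is not divided by length, GATA6 (103 ± 19.8) stood above FOXA2 (25.5 ± 6.75) in cytoplasm.

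The next values are in CPM, scaled to each library's total count, and are compared for 1 gene across fractions. SOX17 (ENSG00000164736, chromosome 8, 54457935 to 54460888), the HMG-box factor of definitive endoderm, measured 189, 142 and 142 CPM in the 3 cytoplasm libraries and 81.7, 89.9 and 93.5 CPM in the nucleus libraries. It measured 51.2, 46.9 and 56.8 CPM in nucleoplasm, with 130, 90.0 and 103 CPM in chromatin. By CPM SOX17 was therefore highest in cytoplasm and lowest in nucleoplasm, with no overlap between those groups and the others. By TPM its chromatin libraries (82.7 ± 13.7) overlapped those of cytoplasm (79.8 ± 15.4). GATA4 (ENSG00000136574, chromosome 8, 11676959 to 11760002), a zinc-finger factor of endoderm and heart, measured 188, 146 and 154 CPM in cytoplasm, 95.2, 106 and 96.6 CPM in nucleus, 56.0, 63.9 and 54.6 CPM in nucleoplasm, with 148, 111 and 145 CPM in chromatin. Its chromatin and cytoplasm libraries overlapped by CPM, which those of SOX17 did not.

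GATA6 (ENSG00000141448, chromosome 18, 22169443 to 22202528), the partner of GATA4 in endoderm, measured 125, 97.2 and 86.6 CPM in cytoplasm and 35.5, 47.1 and 51.6 CPM in nucleus. Nucleoplasm held 38.0, 35.5 and 34.3 CPM and chromatin 59.8, 42.8 and 65.0 CPM, so cytoplasm stood apart and the 3 nuclear groups lay close together. FOXA2 (ENSG00000125798, chromosome 20, 22581005 to 22585455), a forkhead factor that opens chromatin at gut and liver genes, followed SOX17 and GATA4 by TPM in all fractions but nucleoplasm. It measured 33.0, 23.9 and 19.7 CPM in cytoplasm, 17.5, 20.6 and 19.3 CPM in nucleus, 10.3, 11.6 and 11.7 CPM in nucleoplasm, with 15.1, 14.1 and 17.7 CPM in chromatin. Its cytoplasm and nucleus libraries overlapped.

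Among the primitive streak factors, EOMES (ENSG00000163508, chromosome 3, 27715949 to 27722711), a T-box factor, measured 62.9, 46.6 and 40.5 CPM in cytoplasm, 20.9, 23.7 and 29.4 CPM in nucleus, 18.1, 16.6 and 19.0 CPM in nucleoplasm, with 25.7, 30.5 and 32.4 CPM in chromatin. MIXL1 (ENSG00000185155, chromosome 1, 226223618 to 226227054), a paired-type homeobox factor induced by Nodal and Activin, measured 16.01, 13.5 and 15.2 CPM in cytoplasm. Its nucleus libraries held 3.89, 4.44 and 4.28 CPM, nucleoplasm 2.02, 3.13 and 3.81 CPM and chromatin 4.06, 2.28 and 3.57 CPM. Every cytoplasm library of MIXL1 lay above every library of the other fractions. GSC (ENSG00000133937, chromosome 14, 94768216 to 94770230), a homeobox repressor of the organizer, was near the limit of these libraries: 13 to 60 counts each, 1.82 to 3.16 CPM in cytoplasm, 0.873 to 2.61 in nucleus, 1.30 to 1.74 in nucleoplasm, with 2.91 to 4.87 in chromatin. HHEX (ENSG00000152804, chromosome 10, 92689951 to 92695646) had 26 to 111 counts per library, at 3.51 to 6.05 CPM in cytoplasm, 2.28 to 3.10 in nucleus, 2.23 to 3.21 in nucleoplasm, with 2.98 to 4.06 in chromatin.

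The signalling members had other profiles. CXCR4 (ENSG00000121966, chromosome 2, 136114349 to 136118165) measured 4.74, 4.07 and 3.07 CPM in cytoplasm and 26.0, 22.1 and 26.9 CPM in nucleus. In nucleoplasm it measured 28.7, 25.0 and 28.1 CPM and in chromatin 14.5, 13.9 and 11.6 CPM. Cytoplasm was lowest, chromatin intermediate, and nucleus and nucleoplasm overlapped at the top. CER1 (ENSG00000147869, chromosome 9, 14719724 to 14722717) measured 8.55, 6.51 and 5.95 CPM in cytoplasm, 5.51, 10.98 and 10.9 CPM in nucleus, 23.5, 22.5 and 22.8 CPM in nucleoplasm, with 7.63, 4.30 and 6.30 CPM in chromatin. Its nucleoplasm libraries stood far above all others, and its cytoplasm and nucleus libraries overlapped through the first nucleus library.

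**Figure D1:**
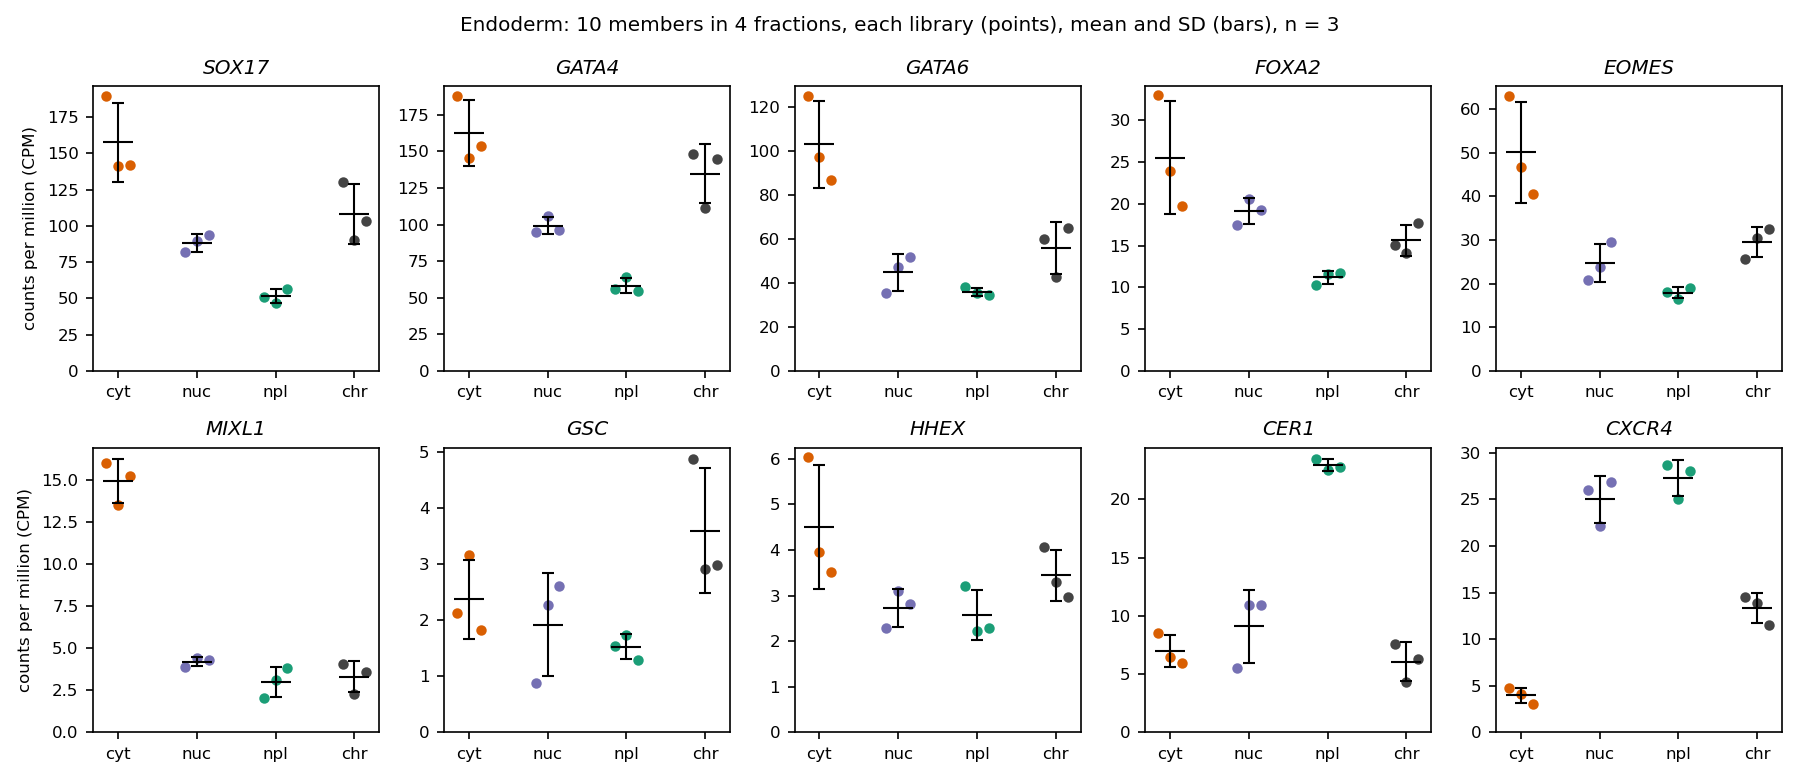
Read counts as CPM (linear axis from 0, a scale of its own for each gene) of the 10 regulators in the 12 endoderm libraries, with 1 point per library and black bars at the mean and SD of the 3 libraries of cytoplasm (cyt), nucleus (nuc), nucleoplasm (npl) and chromatin (chr). CXCR4 is lowest in cytoplasm (3.07 to 4.74 CPM), CER1 is highest in nucleoplasm (22.5 to 23.5 CPM), and MIXL1 is highest in cytoplasm (13.5 to 16.01 CPM).

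A share of the 10 members' own counts needs no scaling between libraries. CXCR4 took 0.650 to 0.838% of the members' counts in cytoplasm, 6.70 to 8.98% in nucleus, 10.9 to 12.4% in nucleoplasm, with 2.96 to 4.41% in chromatin, with no overlap between any pair of fractions. CER1 took 1.26 to 1.35% in cytoplasm, 1.90 to 3.32% in nucleus, 9.72 to 10.1% in nucleoplasm, with 1.36 to 1.84% in chromatin. MIXL1 took 2.52 to 3.23% in cytoplasm and at most 1.62% in any other library. The largest shares moved less: SOX17 took 29.1 to 30.04% in cytoplasm, 27.2 to 28.2% in nucleus, 20.5 to 24.2% in nucleoplasm, with 26.5 to 31.5% in chromatin, and GATA4 was highest in chromatin, at 35.3 to 37.1%, against 29.6 to 32.6% in cytoplasm. Together the 10 members made up 0.0472 to 0.0635% of a cytoplasm library, 0.0289 to 0.0338% of a nucleus library, 0.0229 to 0.0235% in nucleoplasm, with 0.0315 to 0.0414% in chromatin. Cytoplasm replicate 1 gave the highest cytoplasmic CPM for 9 of the 10 members, and nucleus replicate 1 the lowest nuclear CPM for 9 of 10.

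**Figure D2:**
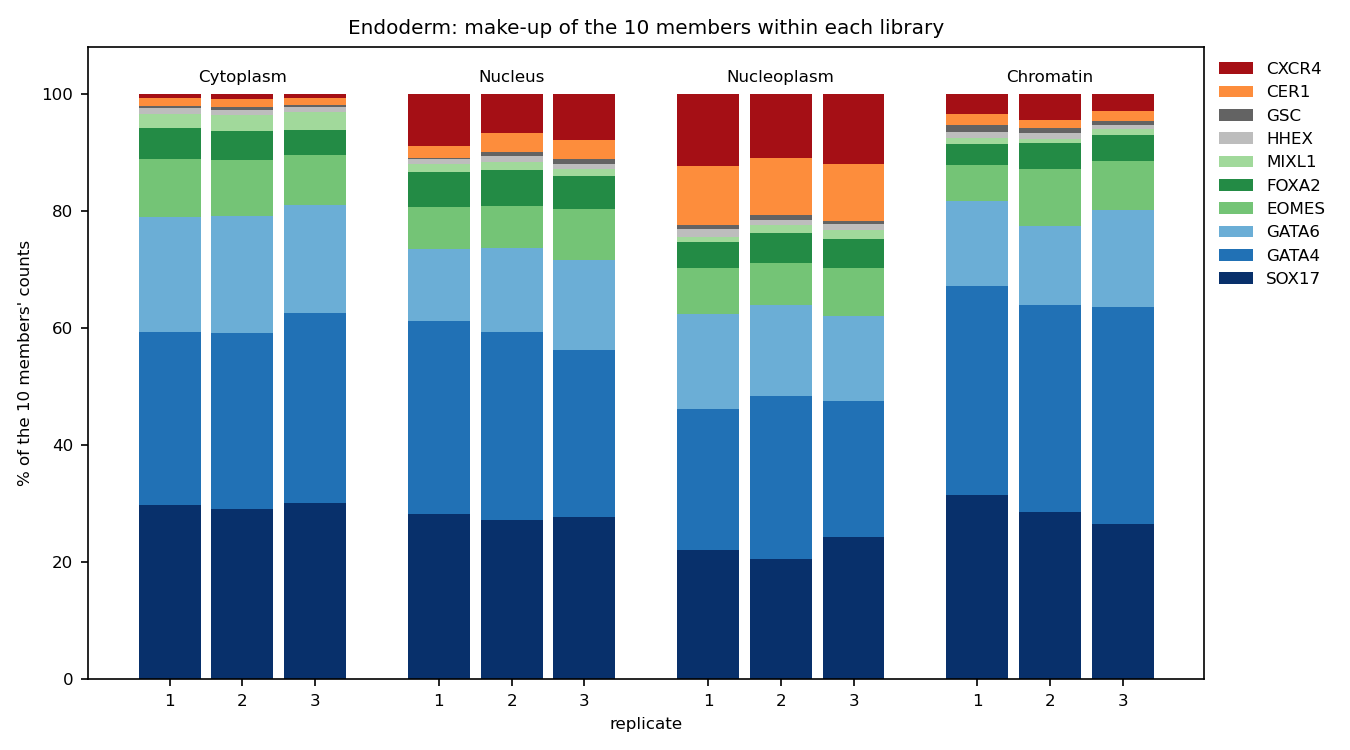
Stacked bars of the share of the 10 regulators' summed counts (percent) that each gene took, 1 bar per endoderm library, grouped by fraction. SOX17 and GATA4 take the largest shares, and CXCR4 and CER1 widen from 0.650 to 1.35% each in cytoplasm to 9.72 to 12.4% each in nucleoplasm.

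The first comparison asked which of these RNAs differ between cytoplasm and nucleus of endoderm. CXCR4 was lower in cytoplasm, by a log2 change of -3.39 (SE 0.23, adjusted p 8.4e-09), a 10.5-fold difference. CER1 was also lower, at -1.04 (SE 0.22, adjusted p 0.00054), while MIXL1 was higher in cytoplasm at 1.11 (SE 0.26, adjusted p 0.0014) and GATA6 at 0.50 (SE 0.17, adjusted p 0.0145). The remaining 6 did not pass the test, edgeR's quasi-likelihood test with TMM scaling and Benjamini-Hochberg adjustment over all genes. EOMES was at 0.31, SOX17 at 0.11, HHEX at 0.02, GATA4 at -0.02, FOXA2 at -0.30 and GSC at -0.34. So 4 of 10 members were called, 2 in each direction, where 69.7% of all 12812 genes tested were called (34.3% higher and 35.4% lower). With TMM scaling the members' share was thus below that of genes at large, and their median change was 0.00, beside 0.01 for all genes. On library totals more of the members were called, beside 9574 of 12812 genes, so the size of this gap depended on the scaling.

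Without cytoplasm replicate 1 the call for GATA6 ended (0.35, adjusted p 0.092) and FOXA2 was called lower in cytoplasm (-0.51, adjusted p 0.030). TMM assumes that most genes do not change, and scaling on library totals instead moved the median of all genes from 0.01 to 0.71 and the share of calls that were higher in cytoplasm from 49.2% to 71.4%. On totals CXCR4 was still lower in cytoplasm (-2.65) and MIXL1 still higher (1.83), CER1 was no longer called (-0.38, adjusted p 0.23), and EOMES (1.02), SOX17 (0.83), HHEX (0.73) and GATA4 (0.71) were called higher, to be read against that shift of the median. CXCR4 and MIXL1 were called in the same direction in 12 of 12 alternative analyses each. Mitochondrial transcripts moved with the same contrast, at 0.423 to 0.460% of the cytoplasm libraries, 8.09 to 16.1% of nucleus, 10.2 to 11.9% of nucleoplasm and 1.32 to 1.54% of chromatin. Their part in the members' values was not tested.

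**Figure D3:**
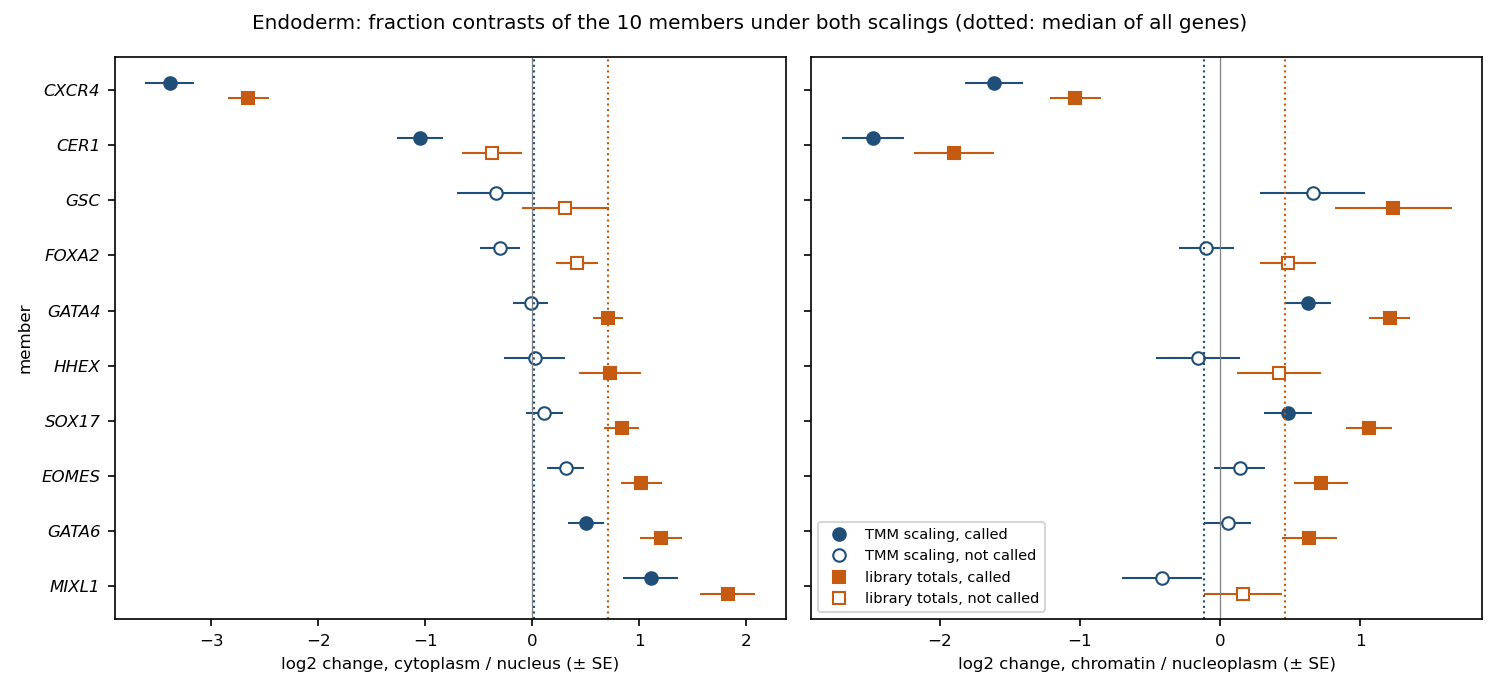
Log2 change (± SE) of the 10 regulators in endoderm, cytoplasm against nucleus on the left and chromatin against nucleoplasm on the right, with TMM scaling as circles, library totals as squares, filled symbols for adjusted p under 0.05 and dotted lines at the median of all genes. CXCR4 lies below 0 in both contrasts under both scalings, and every square sits to the right of its circle, as the dotted lines do.

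The next comparison set the chromatin pellet against the nucleoplasm, the 2 parts of the lysed nucleus. CER1 was lower on chromatin at -2.48 in log2 units (SE 0.22, adjusted p 4.1e-07), and so was CXCR4, at -1.61 (SE 0.21, adjusted p 1.4e-05). GATA4 was higher on chromatin, at 0.63 (SE 0.16, adjusted p 0.0043), and so was SOX17, at 0.48 (SE 0.17, adjusted p 0.027). GSC (0.66), EOMES (0.14), GATA6 (0.06), FOXA2 (-0.10), HHEX (-0.16) and MIXL1 (-0.41) did not pass. These are 4 of 10 members, where 53.4% of all genes were called (edgeR, 22.9% higher and 30.6% lower) around a median of -0.12. The SOX17 call ended without nucleoplasm replicate 1 (0.47, adjusted p 0.080), without nucleoplasm replicate 2 (0.42, adjusted p 0.11) or without chromatin replicate 1 (0.32, adjusted p 0.15). Scaling on totals moved the median of all genes to 0.46, and the share of calls higher on chromatin from 42.8% to 73.8%, and CXCR4, CER1 and GATA4 kept their direction and call in every alternative run.

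Against cytoplasm, nucleoplasm held more CXCR4 (log2 change 3.51, SE 0.23, adjusted p 6.4e-09) and more CER1 (2.45, SE 0.22, adjusted p 1.9e-07). It held less MIXL1 (-1.58), SOX17 (-0.87), GATA6 (-0.78), EOMES (-0.74), GATA4 (-0.74) and FOXA2 (-0.45), all called. This made 8 of 10 members, against 65.3% of all genes, and HHEX (-0.07) and GSC (0.10) were not called. On totals the median of all genes moved from -0.05 to -0.79 and the share of calls higher in nucleoplasm from 49.2% to 25.2%; CXCR4 and CER1 were higher and the 6 others lower under both scalings. FOXA2 lay at the threshold (adjusted p 0.0499), and its call ended without any 1 of 5 of the 6 libraries (-0.24 to -0.49).

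Chromatin against cytoplasm gave 5 calls of 10 members (73.0% of all genes): CXCR4 was higher on chromatin (1.90), and MIXL1 (-1.99), GATA6 (-0.72), EOMES (-0.60) and FOXA2 (-0.55) were lower. Within the nucleus, whole nucleus and nucleoplasm differed in 5 of 10 members (62.3% of all genes). CER1 was higher in nucleoplasm (1.40), CXCR4 was not called (0.13), and GATA4 (-0.76), SOX17 (-0.76), FOXA2 (-0.75) and EOMES (-0.43) were lower. Chromatin against whole nucleus gave 4 of 10 (63.7% of all genes, 33.3% lower), all lower on chromatin: CXCR4 (-1.49), CER1 (-1.08), MIXL1 (-0.88) and FOXA2 (-0.85). Scaling on totals moved that median of all genes to 0.53 and the share of calls higher on chromatin from 47.8% to 72.4%, and only CXCR4 was then called lower there, with GATA4 called higher at 0.44. On the log2 scale of TPM, GATA6 (-0.25), EOMES (-0.24) and FOXA2 (-0.11) were no longer called in chromatin against cytoplasm. FOXA2 lost that call also without cytoplasm replicate 1 (-0.34), chromatin replicate 1 (-0.52) or chromatin replicate 2 (-0.50), SOX17 gained it without cytoplasm replicate 3 (-0.46) or chromatin replicate 1 (-0.55), and EOMES in nucleoplasm against nucleus kept its call in 1 of 12 alternatives. These 6 contrasts share libraries, so their calls are not independent of one another.

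The members were also read by the kind of protein they encode, a grouping made after their values had been seen and with no test of the difference between kinds. All 8 transcription factors lay between -0.34 and 1.11 in cytoplasm against nucleus, with 2 called higher and 0 lower, while both CER1, which is secreted, and CXCR4, which sits in the membrane, were called lower, though CER1 not on library totals. The same grouping was read in a list of 22 other endoderm and mesendoderm genes, 18 of them in the endoderm table. Of its 6 tested transcription factors 3 were higher in cytoplasm and 0 lower: OTX2 (1.10), TBXT (0.97) and PRDM1 (0.91), with a median of 0.54 for the 6. Of its 11 secreted or membrane proteins 10 were lower and 1, the Nodal co-receptor TDGF1 (0.39), was higher, with a median of -2.98. The Nodal antagonists LEFTY1 (-4.25) and LEFTY2 (-3.38), the TGF-beta ligand GDF3 (-3.73) and NODAL itself (-2.98) were among the lowest, beside N-cadherin CDH2 (-3.23), the receptor KIT (-3.13), WNT3 (-1.87), the WNT antagonists DKK1 (-1.81) and FRZB (-1.56), and FGF17 (-1.77). The enzyme CYP26A1, which degrades retinoic acid, was lower too (-1.87). In all, 4 of the 18 were higher and 11 lower, where 34.3% of all genes were called higher and 35.4% lower. The median of the 18 was -1.79, against 0.01 for all genes.

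The levels in CPM show the size of these differences. NODAL measured 10.8 to 13.5 CPM in cytoplasm and 53.6 to 58.6 CPM in nucleus, and KIT 13.3 to 17.4 CPM in cytoplasm, 54.9 to 109 CPM in nucleus and 209 to 260 CPM in nucleoplasm. OTX2 measured 25.4 to 38.1 CPM in cytoplasm and 6.70 to 13.1 CPM in nucleus. Like CER1, KIT was highest in the nucleoplasm. In chromatin against nucleoplasm 9 of the 11 secreted or membrane genes were lower and 0 higher, and 2 of the 6 factors were higher and 0 lower. Of all genes, 30.6% were called lower there and 22.9% higher. On library totals the secreted or membrane genes stayed at 10 lower and 1 higher in cytoplasm against nucleus, with a median of -2.24, and the factors went to 5 higher and 0 lower. That scaling moved the median of all genes from 0.01 to 0.71 and the share of calls higher in cytoplasm from 49.2% to 71.4%. The mitochondrial share of the libraries, given above, was also higher in nucleus and nucleoplasm than in cytoplasm, and its part in these values was not tested.

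**Figure D4:**
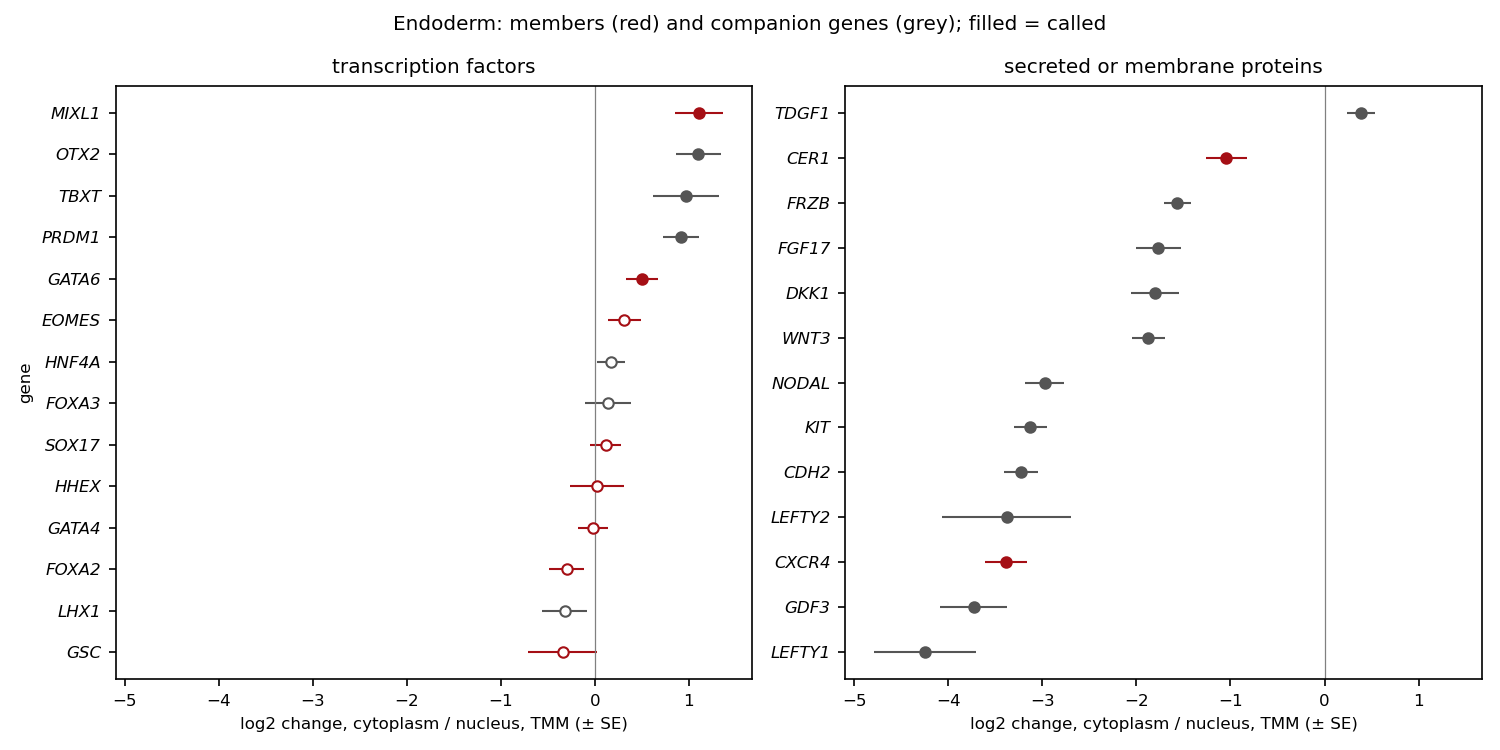
Log2 change (± SE, TMM scaling) between cytoplasm and nucleus of endoderm for transcription factors on the left and secreted or membrane proteins on the right, with the regulators in red, the other endoderm genes in grey and filled symbols for adjusted p under 0.05. The factors lie between -0.34 and 1.11, and all secreted or membrane genes except TDGF1 (0.39) lie below 0.

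The assembled transcripts behind these sums differ from the reference in several members. SOX17, FOXA2, GATA6, MIXL1, HHEX, CER1 and CXCR4 had 1 transcript each, EOMES had 5, GSC had 2 in 2 separate loci, and GATA4 had 15 in 4 loci, of which none carried an Ensembl transcript ID. The ratio of a transcript's CPM to its TPM grows with the length it was quantified at, and over all transcripts with an annotated length the quartiles of such estimates lay between 0.876 and 1.07 of that length. SOX17 came out at a median of 2329 bases for an annotated 2342, and CXCR4 at 1557 for 1682. The endoderm GATA6 transcript came out at 9595 bases, although the Ensembl transcript it is paired with has 2057, and the more abundant GSC transcript at 8189. FOXA2 came out at only 785 bases. The CPM of GATA6 therefore counts reads over a longer model than the paired mRNA, and how much of it is intronic was not tested. The places of GATA6, GSC and FOXA2 in the order by TPM depend on these lengths.

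Tested one by one, 24 member transcripts gave 6 calls in cytoplasm against nucleus (edgeR, 42.1% of 26389 transcripts): GATA6 (0.73) and MIXL1 (1.34) were higher, and CXCR4 (-3.16), CER1 (-0.81) and 2 transcripts from side loci of GATA4 were lower. The call of the CER1 transcript ended on library totals (-0.38) and without cytoplasm replicate 2 or 3 or nucleus replicate 2 or 3 (-0.71 to -0.77). The first of these GATA4 transcripts had 8, 6 and 3 counts in the cytoplasm libraries, 26, 145 and 43 in nucleus, 11, 20 and 19 in nucleoplasm, with 224, 44 and 280 in chromatin. It made up 0.205% of all GATA4 counts in cytoplasm and 12.4% in chromatin, a log2 change of -4.41 between cytoplasm and nucleus (SE 0.81, adjusted p 0.0013) and of 2.94 between chromatin and nucleoplasm (adjusted p 0.013), a call that ended without nucleoplasm replicate 1 (2.69, adjusted p 0.056). The other had 0 to 2 counts per cytoplasm library and 37 to 74 per chromatin library. Chromatin against nucleoplasm gave 4 calls of 24 (29.9% of all transcripts), which were CXCR4 (-1.80), CER1, this first GATA4 transcript and an EOMES transcript (-1.81, adjusted p 0.034), whose call ended without any 1 of the 6 libraries. With its main locus alone GATA4 was still called higher on chromatin than in nucleoplasm and stayed uncalled in cytoplasm against nucleus (0.09), and it became lower on chromatin than in cytoplasm (-0.39, adjusted p 0.048), an alternative chosen after seeing the data.

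The split of reads between overlapping transcripts was unstable. One EOMES transcript took 25.4 to 83.9% of the EOMES counts in the 3 nucleus libraries, and one GATA4 transcript had 514, 407 and 292 counts in cytoplasm, 0 in each nucleus library, 318 in 1 nucleoplasm library and 445 in 1 chromatin library. For GSC the transcript that matches the annotated mRNA held 12, 15 and 15 counts in cytoplasm but 0 to 4 in each chromatin library, where the long transcript held the rest. Gene sums are for this reason the values used elsewhere.

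Noncoding neighbours were read beside 2 members. GATA6-AS1, which starts next to GATA6 on the other strand, measured 9.46 to 12.3 CPM in cytoplasm, 14.4 to 63.7 in nucleus, 17.7 to 22.0 in nucleoplasm, with 98.1 to 120 in chromatin. It was lower in cytoplasm than in nucleus (-2.56, adjusted p 2.4e-06) and higher on chromatin than in nucleoplasm (1.93, adjusted p 5.1e-05, edgeR), whereas GATA6 was 0.50 and 0.06 in those contrasts. No strand-marking step is named for the library kit, so reads of GATA6 and GATA6-AS1 cannot be told apart where they overlap. LINC00261, a long noncoding RNA beside FOXA2 on chromosome 20, measured 13.2 to 20.8 CPM in cytoplasm and 2.82 to 7.76 in nucleus, and was higher in cytoplasm (0.83, adjusted p 0.023), where FOXA2 itself was not called. GSC-DT and LNCSOX17 were not listed.

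Only MIXL1 could be compared between endoderm and hPSCs. In hPSCs it had 8, 16 and 9 counts in the cytoplasm libraries, 0, 1 and 3 in nucleus, 1, 3 and 6 in nucleoplasm, with 5, 2 and 7 in chromatin, which is 0.597 to 1.07 CPM in cytoplasm and at most 0.546 CPM elsewhere. Each endoderm library of MIXL1 was above each hPSC library of the same fraction. Its CPM was 17.03 times higher in endoderm in cytoplasm (14.9 ± 1.29 against 0.876 ± 0.247), 12.4 times in nucleoplasm and 9.84 times in chromatin. In nucleus, from 175 counts against 4, the ratio of pooled CPM was 45.3 (exact 95% interval 17.4 to 168, for counting error only). The fitted log2 changes were 3.93 (SE 0.37, adjusted p 5.1e-09) in cytoplasm, 5.83 (SE 0.53, adjusted p 1.6e-09) in nucleus, 4.12 in nucleoplasm, with 3.48 in chromatin, where 46.3%, 64.2%, 61.8% and 67.5% of 11637 genes were called. MIXL1 passed the count filter of this fit through its endoderm libraries, so these p-values add no support beyond the counts. The nucleus value was 7.01 without hPSC nucleus replicate 3, and the nucleoplasm value 4.78 without hPSC nucleoplasm replicate 3. The cytoplasm-nucleus difference of MIXL1 was smaller in endoderm than in hPSCs by 1.90 but this missed the threshold (adjusted p 0.054, 35.0% of genes called), with hPSC nucleus counts of 0 to 3 on 1 side of it, and it passed without hPSC nucleus replicate 3 (-3.07, adjusted p 0.028), hPSC cytoplasm replicate 3 (-2.16), endoderm nucleus replicate 2 (-1.96) or endoderm nucleus replicate 3 (-1.97). On library totals, which moved the median of all genes from 0.02 to -0.55 in nucleoplasm, MIXL1 was still called higher in each fraction (3.30 to 5.38). Within hPSCs MIXL1 did not reach the count filter for cytoplasm against nucleus, where 65.4% of 14160 genes were called, and without the filter it was higher in cytoplasm (3.05).

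Of the 22 other endoderm genes, 15 were tested against hPSCs in cytoplasm, with 8 higher and 2 lower around a median of 0.86. The same 15 gave 12 higher in nucleus (median 3.07), 12 in nucleoplasm (median 4.09) and 9 in chromatin (median 2.84), with 2 lower in each. Of all genes 23.7% were called higher in cytoplasm, 33.2% in nucleus, 33.1% in nucleoplasm, with 31.5% in chromatin. FGF17, which had a fitted change of 7.68, LHX1 (5.41), PRDM1 (5.09), WNT3 (3.84), FRZB (3.77) and CDH2 (3.47) changed most in cytoplasm, and OTX2 (-0.98) and TDGF1 (-0.78) were lower. Fitted changes of FGF17, LHX1 and PRDM1 rest on 0 to 8 counts per hPSC cytoplasm library.

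GATA6 was the only member listed for both endoderm and mesoderm. In mesoderm it measured 4.69, 4.61 and 3.92 CPM in cytoplasm, 3.32, 3.20 and 3.11 in nucleus, 1.87 in the single nucleoplasm library and 5.21, 2.74 and 3.08 in chromatin, from 23 to 79 counts per library. Endoderm was higher by 23.3 times in cytoplasm, 13.9 in nucleus, 19.2 in nucleoplasm, with 15.2 in chromatin, with no overlap in any fraction. The fitted log2 changes were 4.40 (SE 0.21, adjusted p 1.2e-13), 4.44 (SE 0.22, adjusted p 2.1e-13) and 4.16 (SE 0.22, adjusted p 1.2e-12) in cytoplasm, nucleus and chromatin (38.7%, 72.3% and 45.9% of 11563 genes called). The nucleoplasm pair was not tested, having 1 mesoderm library. The transcript counted was not the same: the mesoderm table pairs GATA6 with another Ensembl transcript, at 3090 bases from its CPM and TPM, against 9595 in endoderm. In TPM, which divides by length and was computed by the authors within each table, the ratios were 7.26 in cytoplasm (12.6 against 1.74), 2.80 in nucleus (7.28 against 2.60), 6.55 in nucleoplasm, with 3.64 in chromatin. The direction was the same on both scales, but the ratio was far smaller in TPM than in CPM in every fraction. The cytoplasm-nucleus difference of GATA6 in mesoderm was 0.55 (adjusted p 0.11; 63.2% of 14547 genes called), and its difference from endoderm was -0.04 (SE 0.28, adjusted p 0.91; 48.3% of genes called), or 0.75 on library totals (adjusted p 0.060), which moved the median of all genes in that test from -0.22 to 0.57.

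Ectoderm has values for 7 members only through a second table, quantified on a combined assembly that lacks SOX17, CER1 and MIXL1, and this comparison was added after seeing the data. All 7 were set against the endoderm table, so the assembly changes with the cell type. FOXA2 had 0 counts in the 9 cytoplasm, nucleoplasm and chromatin libraries of ectoderm, which puts endoderm at least 124-fold, 32.5-fold and 70.2-fold higher against a floor of 3 counts per library, and 1 count in all of the nucleus libraries. EOMES had 0 to 2 counts per ectoderm library, GATA4 0 to 4, HHEX 0 to 5 and GATA6 2 to 15. For GATA6 this was a ratio of 262 in cytoplasm (103 ± 19.8 against 0.392 ± 0.108 CPM) and 65.3 in chromatin. Here too the transcript was not the same. In ectoderm 93.9% of the GATA6 counts were on a transcript annotated at 3770 bases, against an estimated 9595 in endoderm. These ratios were not compared in TPM. These 5 genes were called higher in endoderm in each of the 4 fractions, where 65.5% of 12997 genes were called in cytoplasm (32.9% higher), 71.3% in nucleus (36.4% higher), 68.5% in nucleoplasm (33.0% higher) and 67.7% in chromatin (34.6% higher). FOXA2, EOMES, GATA4 and HHEX passed the count filter only through their endoderm libraries, so their calls add no support beyond the counts.

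GSC and CXCR4 did not share this pattern. GSC measured 1.52 to 2.97 CPM in ectoderm cytoplasm, 1.16 to 2.29 in nucleus, 2.56 to 3.29 in nucleoplasm, with 3.37 to 4.75 in chromatin. Its endoderm libraries overlapped these in cytoplasm, nucleus and chromatin and lay below them in nucleoplasm, and no fraction was called (log2 changes of -0.08, 0.36, -0.41 and -0.01), though on library totals nucleoplasm was (-0.91), where that scaling moved the median of all genes from -0.06 to -0.57 and the share of calls higher in endoderm from 48.2% to 29.4%. A transcript without an Ensembl ID held 80.6% of the GSC counts in endoderm, and another such transcript held 84.3% in ectoderm. The transcript that matches the annotated GSC mRNA held only 74 counts over all endoderm libraries and 77 over all ectoderm libraries. CXCR4 measured 2.06, 2.34 and 3.87 CPM in ectoderm cytoplasm, 8.60, 8.37 and 8.25 in nucleus, 7.64, 6.66 and 7.50 in nucleoplasm, with 5.06, 4.50 and 6.83 in chromatin. Endoderm and ectoderm overlapped for CXCR4 in cytoplasm (log2 change 0.40, SE 0.23, adjusted p 0.14), and endoderm was higher in nucleus (1.92, SE 0.21, adjusted p 2.7e-08), nucleoplasm (2.40) and chromatin (1.50). The cytoplasm call appeared on library totals (0.51) and without ectoderm cytoplasm replicate 3 (0.71).

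CXCR4 was lower in cytoplasm than in nucleus in both cell types, by -1.92 in ectoderm (SE 0.25, adjusted p 4.2e-05; 49.3% of 17417 genes called) and by -3.39 in endoderm. The difference between these differences was -1.52 (SE 0.31, adjusted p 0.00037, edgeR), where 49.9% of genes were called. Library totals moved the median of all genes in this test from 0.02 to 0.45, and CXCR4 was called in the same direction on that scale too. Of the 7 members, CXCR4 was the 1 called, and GATA6 joined it without ectoderm nucleus replicate 3 (1.29, adjusted p 0.037).

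**Figure D5:**
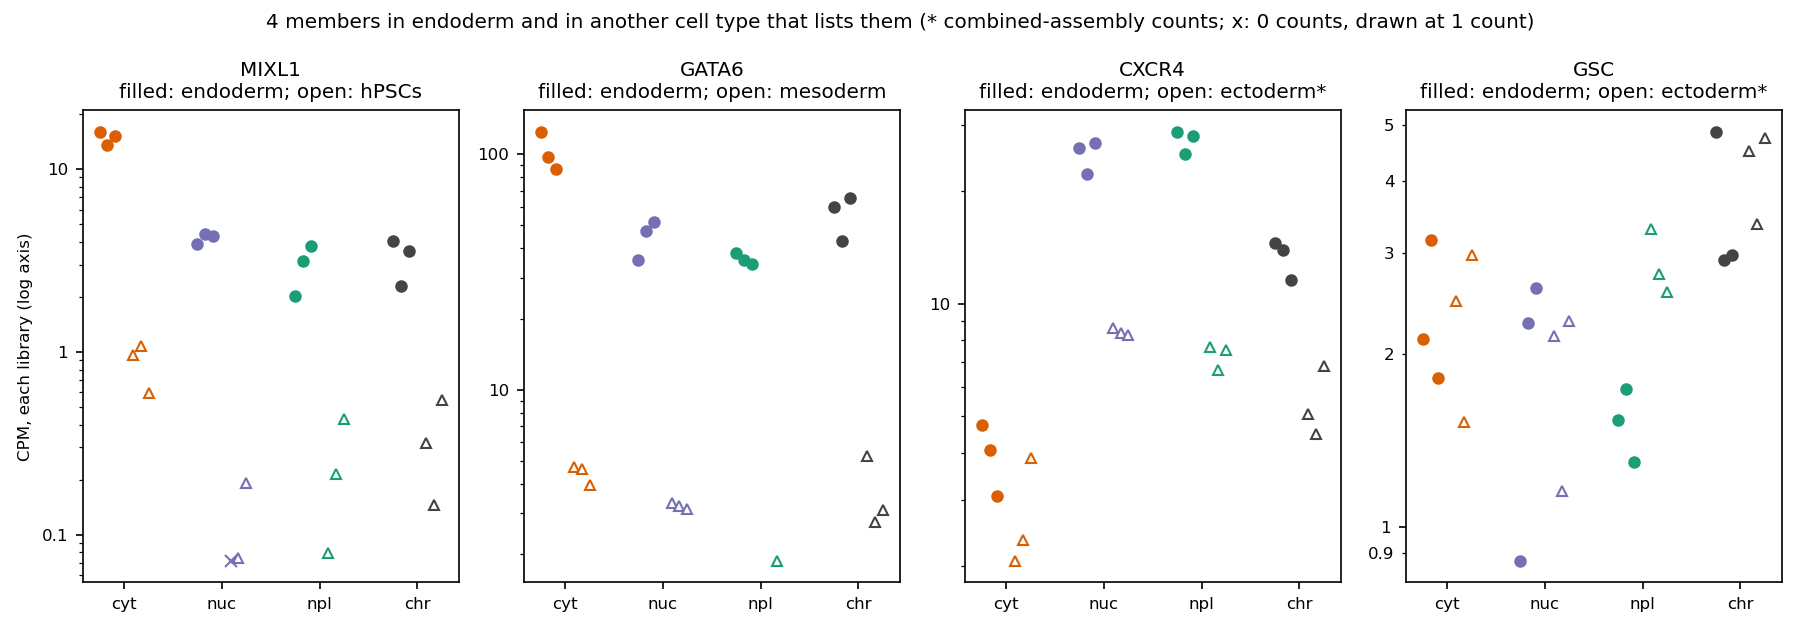
Read counts as CPM (log axis) by fraction of MIXL1, GATA6, CXCR4 and GSC, with endoderm libraries filled and the other cell type open, and a cross for the 1 library with 0 counts, drawn at the value of 1 count. MIXL1 in hPSCs and GATA6 in mesoderm lie below endoderm in every fraction, CXCR4 meets in cytoplasm and separates in the nuclear fractions, and GSC overlaps in all fractions but nucleoplasm.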

How the data were processed

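RNA of 4 subcellular fractions of 4 cell types was sequenced. The submitters' processing notes name STAR, RSEM and hg38, with roles and versions not given in the sources used here. The deposited tables hold whole-number read counts and, separately, TPM values per assembled transcript, against an assembly made for each cell type, per the file headers. Whether the deposited counts are rounded estimates is not given in the sources used here. Counts of transcripts with 1 gene name were summed, and CPM were computed from table totals. 2 columns of per-sample values that match no sample were not used.

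Genes were tested with edgeR 4.0.16 (quasi-likelihood, TMM, low counts filtered at a minimum count of 10), with Benjamini-Hochberg adjustment over all genes and calls at adjusted p under 0.05. A comparison of endoderm with another cell type used the genes of both tables. Labels do not say that replicates were separate cultures, so p-values measure the spread between these samples. No pair of replicates was identical (45 pairs). Alternatives were library totals, DESeq2 1.42.0, no filter, limma 3.58.1 on log2(TPM + 1) and log2(TPM + 0.1), a replicate block and leaving out each library. Scripts were tested on simulated data. Positions are of GRCh38.

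The members and lists were chosen with earlier results of these data known. The rule for named genes was all 10 members, up to 6 of the other endoderm genes with the largest called change from hPSCs in cytoplasm, 4 noncoding neighbours, and member transcripts with a mean of at least 1 CPM. Genes named in the grouping by kind of protein were chosen after their values were seen. 1 gene of the list of other endoderm genes is not reported here and was left out of its counts and medians.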

Additional observations from a re-analysis of the deposited data

Results flagged for a closer look

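The cytoplasm-nucleus difference of CXCR4 differed between cell types. It was -3.39 in endoderm and -1.92 in ectoderm on the log2 scale, and the difference between them was -1.52 (SE 0.31, adjusted p 0.00037, edgeR's interaction term). Each of the 3 cytoplasm libraries lay below each of the 3 nucleus libraries in both cell types. The ectoderm values come from the combined assembly and the endoderm values from the endoderm assembly, so assembly and cell type cannot be told apart here.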

How the results depend on the processing

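Of 1742 alternative values of single genes or transcripts, 1631 kept their side of the threshold and, where called, their direction (115 of them uncalled values that changed sign), 54 lost a call, 47 gained one and 10 reversed; of 283 alternative counts of calls, 262 stayed within 1.5 times. In cytoplasm against nucleus 7 members were called on library totals and 7 on log2(TPM + 0.1). In chromatin against nucleoplasm it was 7 on totals and on both TPM scales. Chromatin against cytoplasm gave 2 on both TPM scales, and chromatin against nucleus 2 on totals. Member transcripts gave 9 calls in chromatin against nucleoplasm on totals and with DESeq2. MIXL1 in hPSC cytoplasm against nucleus was the 1 call without a filter and in the 4 fits without 1 library in which it passed the count filter (1 to 1). Reversed values were GATA4 in cytoplasm against nucleus (0.71 on totals, 0.33 on TPM + 0.1), FOXA2 in chromatin against nucleoplasm (0.52 and 0.54 on TPM), GATA4 (0.44 on totals, 0.59 and 0.60 on TPM) and SOX17 (0.47 on both TPM scales) in chromatin against nucleus, and the GATA6 transcript END.12300.1 in chromatin against nucleoplasm (0.64 on totals); the cause was not tested. Leaving out 1 library gave 4 to 5 calls in cytoplasm against nucleus, 3 to 4 in chromatin against nucleoplasm, 4 to 6 in chromatin against cytoplasm, 7 to 8 in nucleoplasm against cytoplasm, 4 to 5 in nucleoplasm against nucleus and 4 to 4 in chromatin against nucleus. It gave 0 to 1 in the interaction with hPSCs, 1 to 2 in that with ectoderm, 5 to 6 for endoderm against ectoderm in cytoplasm, and 5 to 6 and 2 to 3 for the transcripts. Samples share only a replicate number: same-numbered deviations correlated at -0.403 to 0.258 over 63 pairs, 5 of them over 0.1, and 24 correlated best with their own number. With the replicate block 4 members were called in cytoplasm against nucleus, 4 in chromatin against nucleoplasm, 6 in chromatin against cytoplasm, 7 in nucleoplasm against cytoplasm, 4 in nucleoplasm against nucleus and 4 in chromatin against nucleus. A fit of all 46 libraries was not run, since no member is in all 4 tables, and comparisons with the ectoderm table gave no member value. GSC and HHEX are limited by depth, at 13 to 111 counts per endoderm library.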
